A study of Mus musculus with 32 samples.

Results

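Transcripts of 8 mouse genes of cholesterol synthesis and its control were followed through 3 array experiments on B-lineage cells. The genes were chosen by name (Hmgcs1, Sqle, Idi1, Insig1, Fdft1, Lss, Cyp51 and Srebf2), and all of their probe sets annotated to a single gene were used. This gave 21 probe sets of the 34958 single-gene probe sets of the array, and 8 of 18194 genes: 5 for Hmgcs1, 4 for Fdft1, 3 each for Lss and Cyp51, 2 each for Idi1 and Srebf2, and 1 each for Sqle and Insig1. All 8 either make sterols or govern the pathway, and none is an uptake receptor. Uptake and transport genes were read from a separate list. In GRCm38.p6 coordinates the genes lie at chr5:4080674-4104697 (Cyp51), chr5:28071412-28078662 (Insig1), chr10:76531565-76557139 (Lss), chr13:8885606-8892396 (Idi1), chr13:119690351-119708260 (Hmgcs1), chr14:63145150-63181687 (Fdft1), chr15:59315092-59331193 (Sqle) and chr15:82147269-82205379 (Srebf2).

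The series held 32 Affymetrix arrays built around Ebf1, a transcription factor that B-cell specification requires. In the first experiment the mouse pre-B line 230238 received a pMIG retroviral vector with Ebf1-engrailed, a fusion of Ebf1 to a repressor domain, or the empty pMIG vector, and GFP-sorted cells of 3 samples a group were measured (called Ebf1-Eng and empty vector below). In the second, Ebf1-/- E14.5 fetal liver cells of the C57BL/6J strain, grown on OP9 stroma with KIT ligand, FLT3 ligand and interleukin-7, carried Ebf1-ER, a form of Ebf1 that tamoxifen switches on. They were taken after 0, 6, 12 and 24 h in 0.1 uM 4-hydroxytamoxifen, with 2 arrays a time, so the 0 h cells also lack Ebf1 and carry the vector, and no time-matched untreated cells were analysed here. In the third, live-sorted cells of enlarged lymph nodes from C57BL/6J Ebf1+/-Pax5+/- mice of about 30 weeks (8 nodes, 2 arrays each) were set against 2 samples of sorted wild-type C57BL/6J pro-B cells. The node cells were sorted as live cells, not by a B-cell marker, and the age of the wild-type mice and the organ of origin of their cells were not given in the sources used here.

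Cholesterol is built from acetyl units through mevalonate. Hmgcs1 makes the precursor of mevalonate, Idi1 isomerises the isoprene unit, Fdft1 joins farnesyl units into squalene, Sqle and Lss oxidise and close it into lanosterol, and Cyp51 removes a methyl group from lanosterol. Srebf2 encodes SREBP2, a membrane-bound transcription factor that is released when sterols are scarce and switches these genes on, and Insig1 encodes the protein that holds it back in the endoplasmic reticulum and is itself a target of SREBP2. Dividing lymphoid cells depend on the pathway for membrane and for the isoprene groups attached to proteins.

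The stretches before the starts of 4 of the genes are shown because of their probe sets in the time course. Probe sets of Hmgcs1 and Insig1 were called lower there, and those of Idi1 and Cyp51 1422533_at higher. The other Cyp51 probe sets were not called at any time. Promoters were found for 6 of the 8 genes in the RefSeq set (GRCm38.p6), and those of Hmgcs1 (chr13:119690101-119690350, plus strand), Insig1 (chr5:28071162-28071411, plus strand), Idi1 (chr13:8885356-8885605, plus strand) and Cyp51 (chr5:4104698-4104947, minus strand) are given 5′ to 3′, each 250 bases up to the start. Capitals mark the sterol element searched for, TCACNCCAC, and CCAAT, the letters of the NF-Y motif, on either strand, so that CCAAT on the other strand reads ATTGG.
Hmgcs1: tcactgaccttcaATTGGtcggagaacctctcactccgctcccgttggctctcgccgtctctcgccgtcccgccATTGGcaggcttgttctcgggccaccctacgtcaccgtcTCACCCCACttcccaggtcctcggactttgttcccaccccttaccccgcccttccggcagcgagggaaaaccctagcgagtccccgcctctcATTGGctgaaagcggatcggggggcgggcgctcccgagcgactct
Insig1: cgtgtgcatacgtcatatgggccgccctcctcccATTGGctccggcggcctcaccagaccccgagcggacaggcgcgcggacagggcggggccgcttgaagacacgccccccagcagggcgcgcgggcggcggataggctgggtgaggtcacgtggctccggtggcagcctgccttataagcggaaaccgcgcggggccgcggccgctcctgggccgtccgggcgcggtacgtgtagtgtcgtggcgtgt
Idi1: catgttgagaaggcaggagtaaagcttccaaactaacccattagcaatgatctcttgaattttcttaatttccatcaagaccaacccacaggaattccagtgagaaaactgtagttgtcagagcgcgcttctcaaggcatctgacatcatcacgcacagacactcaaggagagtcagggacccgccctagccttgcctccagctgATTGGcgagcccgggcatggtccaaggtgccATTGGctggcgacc
Cyp51: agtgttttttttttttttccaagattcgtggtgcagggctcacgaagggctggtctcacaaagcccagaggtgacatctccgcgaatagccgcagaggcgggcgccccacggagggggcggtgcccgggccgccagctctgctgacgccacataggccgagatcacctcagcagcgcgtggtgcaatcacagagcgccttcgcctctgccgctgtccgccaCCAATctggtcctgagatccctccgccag
The letters TCACNCCAC were in the Hmgcs1 stretch, beginning 137 bases before the start, and in none of the other 5 promoters, against 1.05% of 32851 mouse promoters of the same length. CCAAT was in all 6 (33.8% of all promoters), 3 times in Hmgcs1, 2 times in Idi1 and 1 time in each of the others. GGGCGG, the letters of an Sp1 site, was in all 6 as well (32.7%), CACGTG in that of Insig1 alone (6.02%), and CCCNNGGG, the letters of an Ebf1 site, in none (11.8%). These are matches of letters in a fixed window, and the arrays do not measure binding.

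The values are log2 expression. In the first 2 experiments each probe set is centred on 0 over the arrays of its experiment, so a value above 0 is above their middle. In the third, 10846 of 45101 probe sets had a median of 0 over the 18 arrays, so 0 need not be the middle there. Differences but not levels can be read. Called means an adjusted p under 0.05 from limma with Benjamini-Hochberg adjustment over all 34958 probe sets, and errors of log2 changes are limma's standard errors. The labels do not say whether replicates came from separate cultures or animals, so the p-values rest on sample-to-sample spread that may be only technical. Array medians lay between -0.014 and 0.049, and no pair of arrays held the same values. Of 5 Ebf1 probe sets, 4 were lower with Ebf1-Eng (log2 change -1.77 to -1.50), 4 were lower at 24 h than at 0 h, and 4 were lower in the nodes. The other, 1457441_at, was 22.4-fold higher in the nodes. In the first 2 experiments vector and endogenous Ebf1 transcripts cannot be told apart here, so those values check no label. In the nodes, whose mice carry 1 Ebf1 allele, 4 probe sets were lower, as on 1416302_at with wild-type samples at 0.77 and 0.70 and nodes between -0.52 and 0.37, and 1457441_at went against the genotype in the label.

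With Ebf1-Eng the sterol genes were higher. Of the 21 probe sets 8 rose and 0 fell, in 5 genes (Lss, Fdft1, Hmgcs1, Sqle and Cyp51), while 6.71% of all probe sets tested rose and 4.95% fell. Without adjustment, limma gave p under 0.05 for 13 higher and 0 lower. The median change of the 21 was 0.55, against -0.01 for all probe sets, and 20 of 21 changes were above 0. In 12 the 3 Ebf1-Eng samples all lay above the 3 empty-vector samples, which held for 15.1% of all probe sets.

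Lss, which closes the sterol rings, differed most. On 1426913_at the Ebf1-Eng samples stood at 0.64, 0.74 and 0.54 and the empty-vector samples at -1.37, -0.93 and -0.54. The groups lay apart, with the empty-vector samples spread more widely and the third of them nearest to the Ebf1-Eng cells. The change was 1.59 ± 0.20, or 3.01-fold (adjusted p = 0.0036, n = 3 and 3, limma). The other Lss probe sets rose too, 1420013_s_at by 1.03 ± 0.11 (adjusted p = 0.0017, limma) and 1420014_at by 0.42 ± 0.10 (adjusted p = 0.044, limma).

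Fdft1, squalene synthase, split by probe set. On 1448130_at the Ebf1-Eng samples were at 0.24, 0.29 and 0.49 and the empty-vector samples at -0.92, -0.91 and -0.24, a change of 1.03 ± 0.19 (2.04-fold, adjusted p = 0.016, limma). Probe set 1438322_x_at gave 1.02 ± 0.17 (adjusted p = 0.011, limma). The other 2 did not separate the groups, with changes of 0.09 on 1438918_at and -0.05 on 1438919_x_at. Sqle, the epoxidase that follows, stood at 0.23, 0.22 and 0.58 against -0.40, -0.33 and -0.22, so that all 3 Ebf1-Eng samples were higher. Its change was 0.66 ± 0.12 (1.58-fold, adjusted p = 0.015, limma). Cyp51 rose on 1450646_at (0.55 ± 0.11, adjusted p = 0.019, limma), and its other probe sets changed by 0.04 and 0.13 and were not called.

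Hmgcs1, the entry enzyme, was called on 1 of 5 probe sets. On 1433446_at the Ebf1-Eng samples were at 0.24, 0.35 and 0.42 and the empty-vector samples at -0.68, -0.54 and -0.24, with no overlap and a change of 0.82 ± 0.13 (1.77-fold, adjusted p = 0.0087, limma). The other 4 changed by 0.30 to 0.85 and were not called. Insig1 stood at 0.28, 0.04 and 0.40 against -0.66, -0.53 and -0.04, again with the third empty-vector sample closest to the Ebf1-Eng cells (change 0.65 ± 0.18, adjusted p = 0.063, limma). Samples with the same number deviated together in this experiment, though samples 1 and 2 were positively correlated across numbers as well. With the replicate number as a block, an alternative to the main fit, Insig1 (adjusted p = 0.018, limma) and 3 more Hmgcs1 probe sets (adjusted p = 0.0031 to 0.031, limma) were called as well, 12 of 21 in all. Idi1 changed by 0.06 and 0.35 and Srebf2 by 0.24 and 0.22, none of them called.

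**Figure D1:**
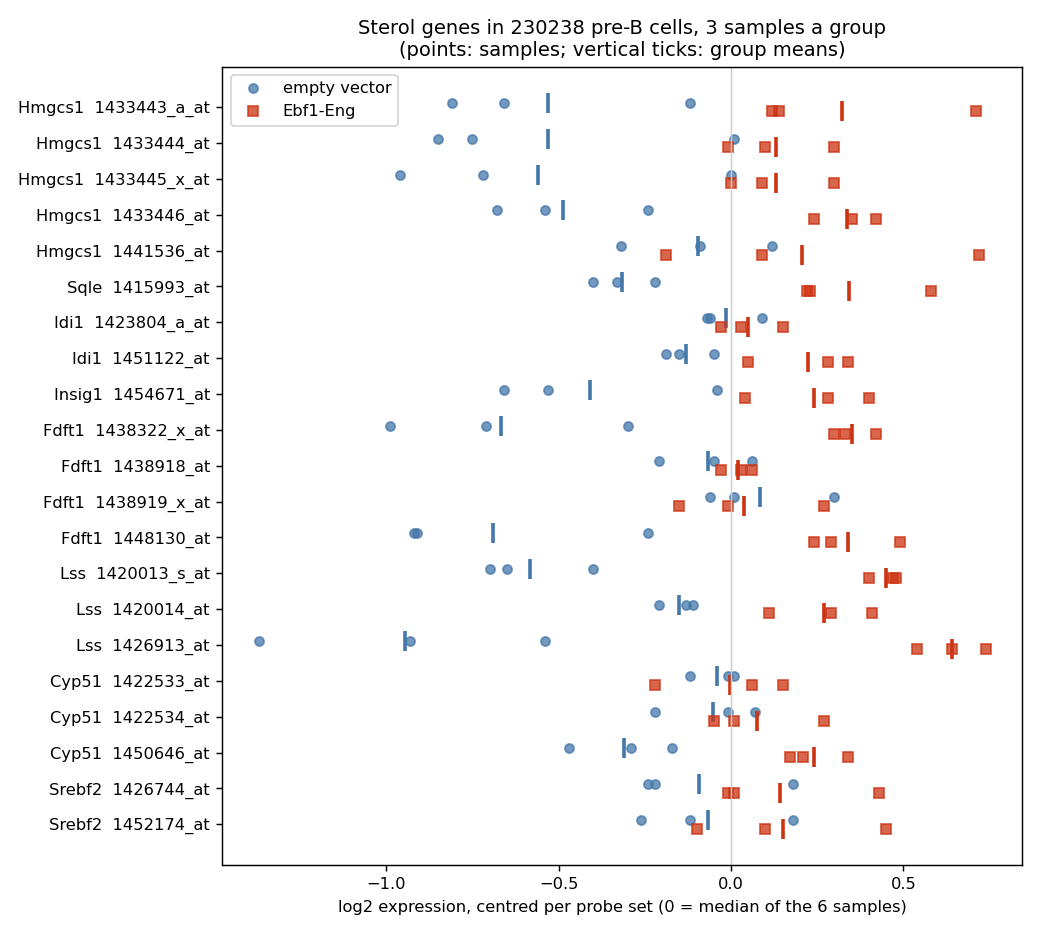
Centred log2 expression (x axis) of the 21 probe sets (rows) in 3 empty-vector samples (blue circles) and 3 Ebf1-Eng samples (red squares), with group means as vertical ticks. The groups lie farthest apart for Lss 1426913_at, and 2 Fdft1 probe sets, 2 Cyp51 probe sets and Idi1 1423804_a_at show little separation.

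The remaining genes of the pathway were mixed. Of 5 other measured mevalonate genes Fdps, which makes farnesyl diphosphate, rose by 0.54 ± 0.11 and the other 4 were not called. Of 9 other genes from squalene to cholesterol 3 had a probe set that rose. These were Msmo1, the C4-methylsterol oxidase, by 0.96 ± 0.13 on 1423078_a_at, Dhcr7, the last reductase, by 0.56 ± 0.11, and Hsd17b7 by 0.49 ± 0.12 on 1457248_x_at. On Msmo1 1459627_at the groups overlapped, at -0.10 to 0.11 against -0.20 to 0.17. They did so on Hsd17b7 1440057_at too, at -0.04 to 0.05 against -0.16 to 0.23. Lbr, an inner nuclear membrane protein that is also a sterol reductase, fell by 0.88 on the log2 scale. In SREBP control Scap, the sterol-sensing escort of SREBP, fell by 0.78 and Srebf1 by 0.48, while Insig2 rose by 0.52 and Mbtps2, the second SREBP protease, by 0.50.

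Among 9 uptake and transport genes 2 rose and 0 fell. Lrp8, a lipoprotein receptor, rose 3.28-fold (1.71 ± 0.27), with samples at 1.02, 1.00 and 0.51 against -0.61, -0.51 and -1.47 on 1440882_at. Lipa, the lysosomal acid lipase, rose 2.22-fold. Of 5 efflux genes Abcg1, a cholesterol exporter, fell by 0.87. Of 12 fatty acid genes 3 rose and 1 fell. Acss2, which makes acetyl-CoA from acetate, was 5.13-fold higher (2.36 ± 0.25), Scd2 2.01-fold on 1415823_at and Fads2 1.51-fold, and Scd1 fell by 0.48. On Scd2 1415824_at the groups overlapped, at 0.44, 0.50 and -0.17 against 0.17, -0.32 and -0.96.

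Genes of cell division changed in the other direction. All 11 measured genes of the proliferation list fell, with mean values of -0.62 to -0.38 in Ebf1-Eng samples and 0.47 to 0.66 in empty-vector samples. B-lineage markers were lower in 4 of 9 (means -0.90 to -0.22 against 0.31 to 0.68), and 3 of 10 myeloid markers were higher (means 0.35 to 0.43 against -0.33 to -0.23). Over all probe sets 6.71% rose and 4.95% fell. The part of these gene groups in the sterol result was not tested. The number of the 21 called depended on the samples kept: it was 4 without Ebf1-Eng sample 1, 5 without Ebf1-Eng sample 2, 4 without empty-vector sample 1 and 3 without empty-vector sample 2, and 11 without empty-vector sample 3 or without both samples numbered 3. Lss 1426913_at, Lss 1420013_s_at and Hmgcs1 1433446_at were called in every alternative run, as were 4 of 16 other named probe sets, those of Acss2, Msmo1, Lbr and Scap.

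In the Ebf1-ER time course probe sets of the 8 genes were called in both directions. The 0 h arrays are the reference for 3 comparisons, which therefore are not independent. At 6 h 5 of 21 probe sets were higher than at 0 h (17.2% of all probe sets) and 4 were lower (14.8%). At 12 h 1 was higher (18.5%) and 8 lower (18.0%), and at 24 h 4 were higher (19.3%) and 3 lower (15.8%). The median change of the 21 was 0.05, -0.25 and 0.05 at the 3 times, against 0.02, 0.02 and 0.04 for all probe sets. At 6 h and 24 h the shares in each direction were close to the background, while at 12 h the lower calls were above it and the higher calls below. The 8 lower calls at 12 h came from 3 genes, Hmgcs1, Fdft1 and Insig1, and 5 of them were probe sets of Hmgcs1. Probe sets of 1 gene are not independent. No untreated cells taken at the same hours and no treated cells without Ebf1-ER were analysed here. Time in culture, 4-hydroxytamoxifen itself and Ebf1-ER activity therefore cannot be told apart.

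Insig1 fell and partly returned. Its arrays were at 0.79 and 1.09 at 0 h, -0.13 and -0.44 at 6 h, -0.41 and -0.34 at 12 h, and 0.15 and 0.13 at 24 h. Both 0 h arrays lay above all 6 later ones. The change was -1.22 ± 0.14 at 6 h (2.33-fold lower, adjusted p = 0.00031, limma), -1.32 ± 0.14 at 12 h (2.49-fold lower, adjusted p = 0.00017, limma) and -0.80 ± 0.14 at 24 h (1.74-fold lower, adjusted p = 0.0025, limma).

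Hmgcs1 fell on several probe sets. On 1433443_a_at the arrays were at 0.54 and 0.31 at 0 h, 0.03 and -0.01 at 6 h, -0.48 and -0.58 at 12 h, and -0.06 and 0.01 at 24 h, so that 12 h was the lowest time and 0 h the highest. Changes from 0 h were -0.41, -0.95 and -0.45 (adjusted p = 0.017, 0.0002 and 0.01, limma). On 1441536_at they were larger, -1.41, -1.55 and -0.88, with adjusted p = 0.00077, 0.00038 and 0.0074 (limma). At 12 h all 5 Hmgcs1 probe sets were lower than at 0 h, 1.64-fold to 2.93-fold, and these 5 calls held in every alternative run.

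Idi1 and Cyp51 1422533_at moved the other way. On Idi1 1451122_at the arrays were at -0.28 and -0.46 at 0 h, 0.17 and 0.07 at 6 h, -0.13 and -0.07 at 12 h, and 0.27 and 0.17 at 24 h. The 0 h arrays were the lowest, and the change was 0.49 ± 0.10 at 6 h (adjusted p = 0.0061, limma) and 0.59 ± 0.10 at 24 h (adjusted p = 0.0023, limma), with 0.27 at 12 h not called. Cyp51 1422533_at stood at -0.48 and -0.49 at 0 h and between -0.16 and 0.27 later. It rose by 0.58, 0.39 and 0.74 at 6, 12 and 24 h (adjusted p = 0.0022, 0.013 and 0.00059, limma), whereas its other 2 probe sets were not called at any time.

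Fdft1 probe sets again went apart. Probe set 1438918_at rose by 0.54 at 6 h and 0.71 at 24 h, with arrays at -0.41 and -0.38 at 0 h and 0.39 and 0.25 at 24 h. The 2 probe sets that rose with Ebf1-Eng were lower at 12 h, 1448130_at by -0.54 and 1438322_x_at by -0.52, and at 24 h differed from 0 h by 0.00 and 0.05, not called. Lss rose at 6 h on 1420013_s_at (0.49 ± 0.13) and 1420014_at (0.48 ± 0.12) and was not called later. Its remaining probe set, 1426913_at, the one that differed most with Ebf1-Eng, did not rise: its change from 0 h was -0.06, -0.31 and -0.09 at 6, 12 and 24 h, not called. Sqle and Srebf2 were not called against 0 h at any time, with changes of -0.05 to 0.23 for Sqle and -0.25 to 0.10 for Srebf2.

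The values were low at 12 h. From 6 h to 12 h all 21 changes were below 0 (median -0.28, against -0.01 for all probe sets), and in 17 both 12 h arrays lay below both 6 h arrays, which held for 27.2% of all probe sets. Only 2 were called, Hmgcs1 1433443_a_at (-0.54 ± 0.10, adjusted p = 0.045, limma) and 1433446_at (-0.54 ± 0.10, adjusted p = 0.049, limma), against 0.735% of all probe sets, and 0 were higher (1.30%). Without adjustment limma gave p under 0.05 for 11 lower and 0 higher.

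From 12 h to 24 h 20 of 21 changes were above 0 (median 0.34, against 0.02), and in 19 the 24 h arrays lay above the 12 h arrays, against 28.5% of all probe sets. Here 4 were called higher (2.09% of all), 3 of Hmgcs1 (0.48 to 0.56) and Fdft1 1448130_at (0.54 ± 0.11, adjusted p = 0.048, limma), and 0 were lower (1.35%). Without adjustment limma gave p under 0.05 for 14 higher and 0 lower. Both steps use the 12 h arrays and are not independent. At 24 h against 6 h limma called 0 of 21 in either direction, against 4.38% of all probe sets higher and 3.74% lower, with 2 higher and 1 lower at unadjusted p under 0.05, and all alternatives run also gave 0. Leaving out any 1 of the 4 arrays that a step compares gave 0 calls among the 21, in both steps.

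**Figure D2:**
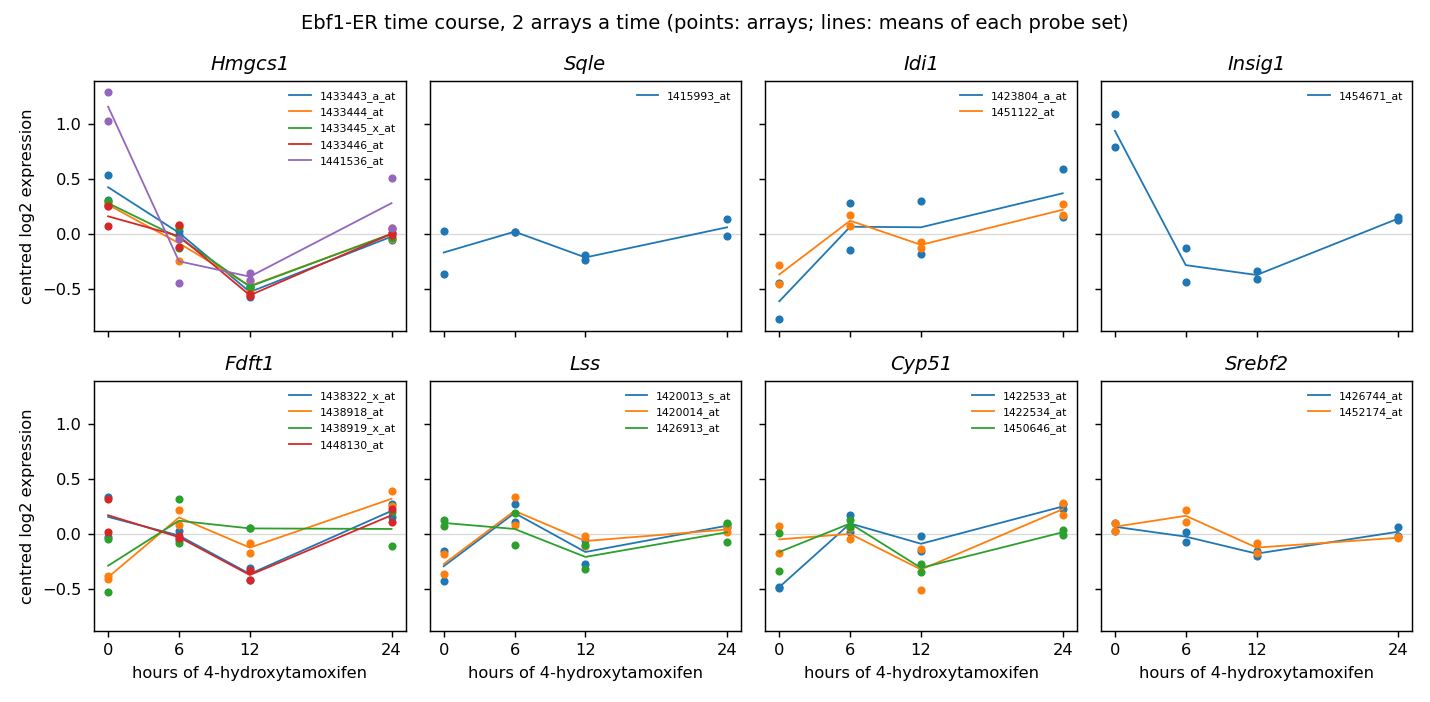
Centred log2 expression (y axis) against hours of 4-hydroxytamoxifen (x axis) for the probe sets of the 8 genes, with points for the 2 arrays a time and lines through their means. Insig1 and Hmgcs1 start highest at 0 h, Idi1 and Cyp51 1422533_at start lowest, and most lines are lower at 12 h than at 6 h and 24 h.

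Some other sterol genes were low at 12 h too. Pmvk and Mvd, the kinase and decarboxylase of the mevalonate pathway, fell from 6 h to 12 h by 0.48 and 0.49 and rose from 12 h to 24 h by 0.38 and 0.63, and Fdps rose in that second step by 0.73. Of 5 other mevalonate genes 2 fell in the first step and 3 rose in the second. Of 9 other genes from squalene to cholesterol limma called 0 in either step, with 6 lower in the first and 3 higher in the second at unadjusted p under 0.05 and median changes of -0.27 and 0.08. None of the 13 calls on other named probe sets in the 2 steps held in every alternative. Against 0 h, 4 of these 9 rose at 6 h (Dhcr7, Ebp, Erg28 and Sc5d) and 2 fell. By probe set this was 4 and 2 of 15, against 17.2% higher and 14.8% lower of all probe sets, so the lower calls were close to the background. Msmo1 1459627_at was among those that fell, at 1.26 and 1.27 at 0 h and -0.19 and -0.20 at 6 h (2.76-fold lower). The other Msmo1 probe set named, 1423078_a_at, was at 0.24 and -0.07 at 0 h and 0.28 and 0.14 at 6 h.

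Transport and efflux genes had some of the larger changes. At 6 h 5 of 25 uptake and transport probe sets were higher than at 0 h and 5 lower, close to the 17.2% and 14.8% of all. Of 8 efflux probe sets 1 was higher and 4 lower. Besides the genes below, Npc2 and Lipa were called lower at 6 h and Apoe higher. Abca1, the main cholesterol exporter, fell 4.61-fold at 6 h and 5.89-fold at 12 h on 1421840_at, with arrays at 1.87 and 1.91 at 0 h, -0.16 and -0.47 at 6 h, and -0.67 and -0.67 at 12 h. It rose again by 0.86 from 12 h to 24 h. Of the other Abca1 probe sets, 1421839_at was at 0.41 and 0.66 at 0 h and between -0.12 and 0.08 later, and 1450392_at stayed between -0.22 and 0.10. Abcg1 fell by 1.11 at 6 h, and Mylip, the ligase that degrades lipoprotein receptors, fell by 0.97, 1.40 and 1.20 at the 3 times. Scarb1, the HDL receptor, rose by 1.27 at 6 h, and Lrp8 1442347_at by 1.01 at 6 h and 1.54 at 12 h. Stard4, a cytosolic sterol carrier, was flat until 12 h on 1429239_a_at and then rose, with 24 h arrays at 0.90 and 0.89 (change from 0 h 0.96 ± 0.09). On Stard4 1455011_at the arrays were at 0.05 and -0.01 at 0 h and only 0.16 and 0.28 at 24 h.

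Srebf1 was not called at any time. In SREBP control Insig2 fell by 0.52, 0.83 and 0.70 at 6, 12 and 24 h, in the direction of Insig1, and Ube2g2, a ubiquitin-conjugating enzyme, rose by 0.90, 0.91 and 1.10. Rnf139 was also called lower at 6 h, and Mbtps2 and Scap higher. By probe set 4 of 15 in this list, without the members, were higher at 6 h and 3 lower. Among fatty acid genes Acaca, acetyl-CoA carboxylase, rose by 1.11 at 6 h and Fasn by 0.66, and Acss2 fell by 1.46 at 12 h. Of 12 fatty acid genes in all, 4 rose, 2 fell and Elovl6 had probe sets called both ways at 6 h. By probe set this was 6 of 32 higher and 4 lower, close to the 17.2% and 14.8% of all probe sets. In prenylation 4 of 7 genes rose at 6 h and 0 fell (5 of 13 probe sets higher, against the same 17.2%), led by Rabggtb, a subunit of the Rab prenylation enzyme, at 1.41 ± 0.09.

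Other gene groups moved over the same hours. The proliferation list rose in 8 of 11 genes from 6 h to 12 h, with array means of -0.69 to -0.52 up to 6 h and 0.31 to 0.52 from 12 h. Stromal markers were higher at 0 h (means 0.76 and 0.36) than at 24 h (-0.28 and -0.08), with 5 of 10 lower at 24 h, and NK marker means were 0.64 and 0.79 at 0 h and -0.28 and -0.30 at 24 h, 3 of 5 markers being lower. Myeloid markers were lower at 24 h in 4 of 10 and higher in 2 (means 0.45 and 0.33 at 0 h), and T-cell markers lower in 4 of 9 and higher in 1. Over all probe sets 15.8% were lower and 19.3% higher at 24 h than at 0 h, and 1.30% were higher at 12 h than at 6 h. The marker counts are by gene, so they are not shares of probe sets. The part of these gene groups in the changes of Insig1 and Hmgcs1 was not tested. In bulk RNA fewer cells of a type and less RNA per cell cannot be told apart.

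In tumour lymph nodes the genes were higher than in wild-type pro-B cells. All 21 differences were above 0, with a median of 0.59 against 0.02 for all probe sets. Of 21, 9 were called higher and 0 lower, in 5 genes (Cyp51, Sqle, Idi1, Srebf2 and Hmgcs1), while 9.87% of all probe sets were called higher and 7.53% lower. Without adjustment limma gave p under 0.05 for 12 higher and 0 lower. In 11 all 8 nodes lay above both wild-type samples, which held for 14.9% of all probe sets.

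Cyp51 and Sqle differed most. Cyp51 1422533_at was at -1.58 and -1.97 in wild-type samples and between -0.41 and 0.34 in the nodes, median 0.10. Every node was above both wild-type samples, and the difference was 1.83 ± 0.20 (3.56-fold, adjusted p = 0.00026, limma). The other Cyp51 probe sets gave 1.34 ± 0.25 and 0.70 ± 0.15, both called. Sqle was at -1.76 and -1.62 in wild-type samples and between -0.44 and 0.72 in the nodes (median 0.04), again without overlap. Its difference was 1.78 ± 0.28 (3.44-fold, adjusted p = 0.0023, limma).

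Idi1 was higher on both probe sets, by 1.01 ± 0.27 (adjusted p = 0.027, limma) and 1.00 ± 0.23 (adjusted p = 0.016, limma). On 1451122_at the wild-type samples were at -0.90 and -1.09 and the nodes between -0.58 and 0.45 (median 0.07). Srebf2 was higher on 1426744_at, with wild-type samples at -0.91 and -0.53 and nodes between -0.38 and 0.32, median 0.04 (0.70 ± 0.16, adjusted p = 0.015, limma), and differed by 0.19 on 1452174_at, not called. Hmgcs1 was higher on 1433444_at (0.67 ± 0.19, adjusted p = 0.031, limma) and 1433446_at (0.59 ± 0.17, adjusted p = 0.04, limma). Insig1 had wild-type samples at -0.40 and -0.73 and nodes between -0.40 and 0.85 (median 0.29), with an overlap at node 277, and was not called (0.79 ± 0.28, adjusted p = 0.082, limma). Lss (0.19 to 0.77) and Fdft1 (0.01 to 0.33) were not called, whereas both were called with Ebf1-Eng, a difference between experiments that was not tested.

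**Figure D3:**
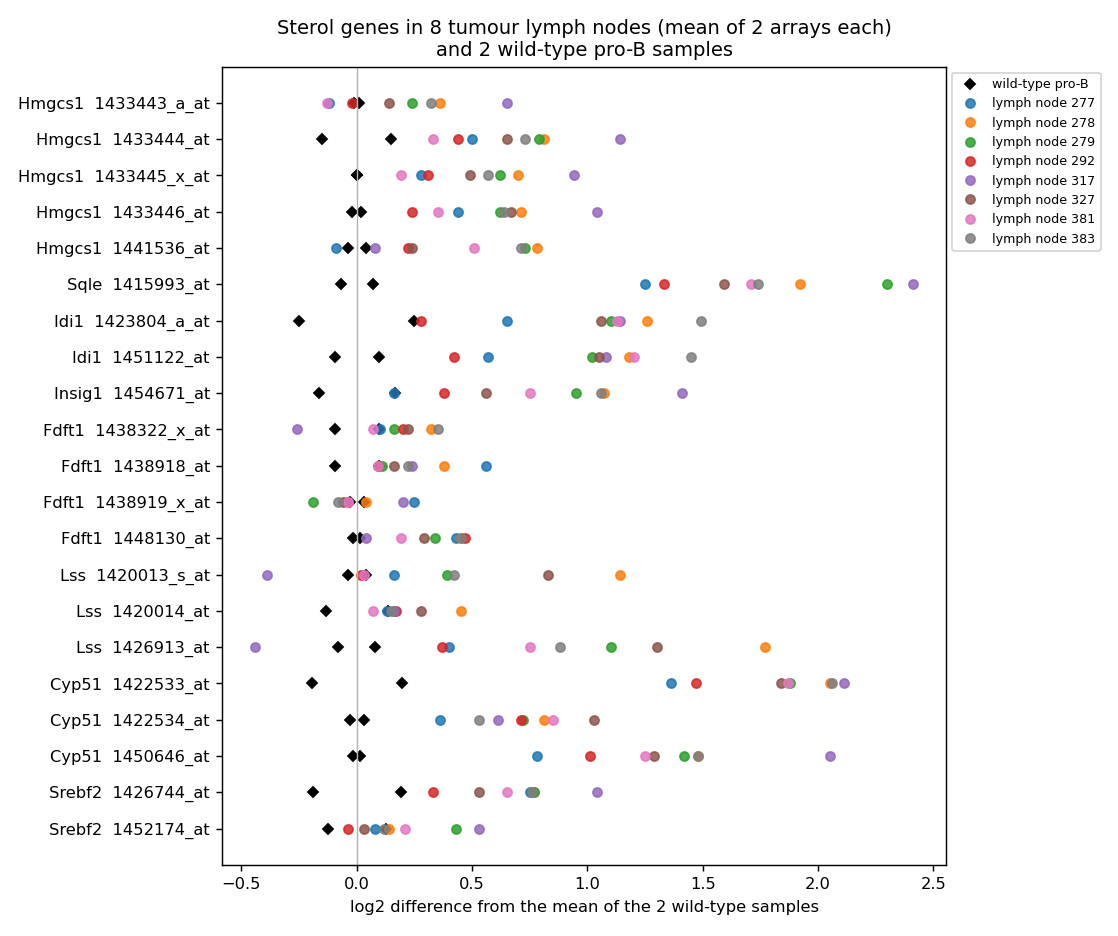
Log2 difference (x axis) of each of 8 tumour lymph nodes (coloured circles, mean of 2 arrays) and of the 2 wild-type pro-B samples (black diamonds) from the wild-type mean, for the 21 probe sets (rows). All nodes are to the right of the wild-type samples for Sqle, Idi1 and Cyp51, and node 317 is leftmost for 2 Lss probe sets and rightmost for Sqle and Insig1.

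This comparison rested on 2 wild-type samples that differed from the nodes in other ways. Of 10 myeloid markers 8 were lower in the nodes, with means of 4.04 and 4.25 in the wild-type samples and -0.98 to 1.19 in the nodes. Mpo, made by granulocyte precursors, was at 6.69 and 7.61 in the wild-type samples and between -0.27 and 0.10 in the nodes. The erythroid means were 1.18 and 1.31 against -0.08 to 0.18 (2 of 3 markers lower in the nodes), and 5 of 10 stromal markers were lower in the nodes. B-lineage markers were lower in 1 of 9, Pax5 on 1 of its 2 probe sets, with means of 0.23 and 0.21 against -0.72 to 0.43. Over all probe sets 7.53% were called lower in the nodes. The 3′ minus 5′ value of the Gapdh control probe sets was 0.22 and 0.19 in the wild-type samples and -0.09 to 0.03 in the nodes. That of the beta-actin control probe sets was not higher in the wild-type samples, at -0.05 and -0.20 against -0.06 to 0.06. Centred values do not show whether a marker is absent, and the part of these differences in the sterol result was not tested. Without the wild-type sample numbered 621 in its title 2 of the 21 were called, and without 622 there were 3. Cyp51 1422533_at and Sqle were called in every alternative run.

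The nodes differed among themselves. A moderated F test over the 16 node arrays called 17 of the 21 probe sets, in all 8 genes, against 58.5% of all probe sets. Its error is the scatter of paired arrays within nodes, which may be technical. Sqle had the largest F (84.8, adjusted p = 1.7e-07, limma), with a range of 1.16 over nodes and a median gap of 0.04 between the arrays of a node.

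Node 317 was highest for Sqle (0.72), Insig1 (0.85), Cyp51 1450646_at (0.77) and both Srebf2 probe sets, and lowest for Lss 1426913_at (-0.88) and Fdft1 1438322_x_at (-0.44). Node 278 was highest for Lss 1426913_at (1.33), so the nodes spanned 2.21 on that probe set, more than on any other of the 21. Node 277 was the lowest for 6 of the 21 probe sets, among them Sqle (-0.44), and node 292 for 5, among them both of Idi1 (-0.72 and -0.58). Node 381 was the lowest for 5 as well and node 317 for 4. Nodes 277 and 292 were also the highest for 3 probe sets between them. Marker means also differed between nodes: T-cell markers stood at 2.32 in node 279 and 1.10 in node 383 and between -0.88 and 0.58 in the others, and B-lineage markers were lowest in node 317 (-0.72). Their part in the differences between nodes was not tested.

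Over the 8 node means Hmgcs1, Sqle, Insig1 and Cyp51 varied together, with a Pearson r of 0.92 for Hmgcs1 with Insig1, 0.90 for Insig1 with Cyp51 and 0.89 for Sqle with Insig1. Lss and Fdft1 did not follow them (r of -0.09 for Sqle with Lss and -0.58 for Sqle with Fdft1). Over the 8 Ebf1-ER arrays Hmgcs1 and Insig1 also went together (0.91), while Insig1 and Idi1 ran opposite (-0.59). These are descriptions over 8 points that share arrays and, in the time course, the 4 times. The mean of a gene also pools probe sets that can disagree, as for Fdft1. In node 317 Hmgcs1 1441536_at was at -0.25 and its other probe sets at 0.56 to 0.64, and Lss 1420014_at was at 0.04 and 1426913_at at -0.88.

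**Figure D4:**
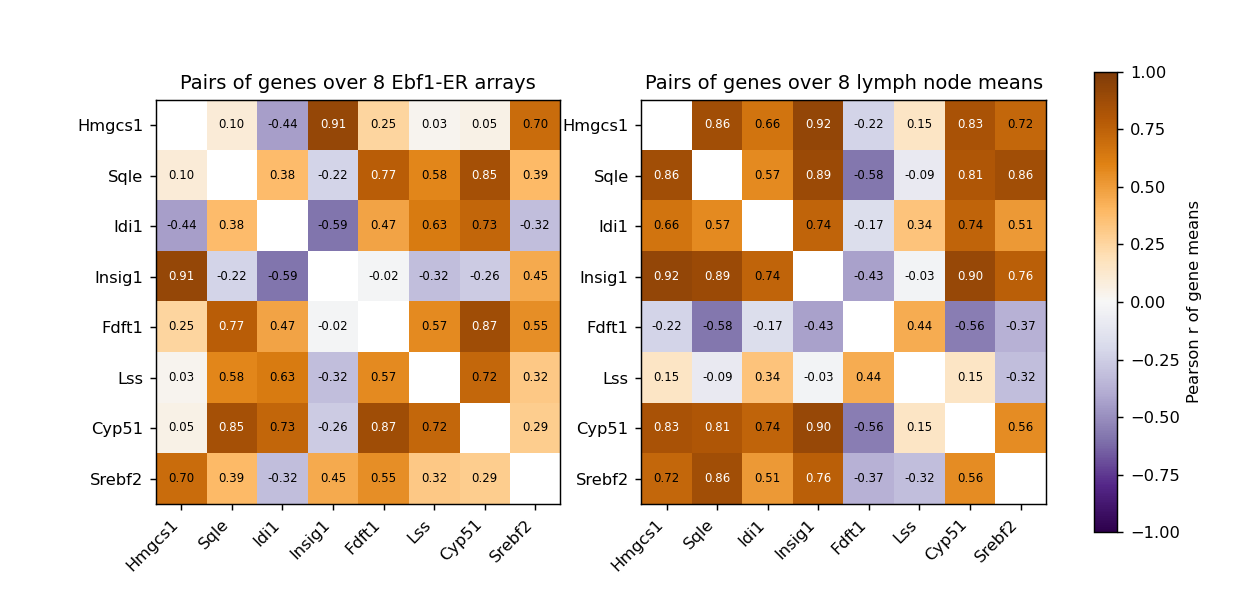
Pearson r between the gene means of the 8 genes over 8 Ebf1-ER arrays (left) and over 8 lymph node means (right), from -1 (purple) to 1 (brown). Hmgcs1 with Insig1 is at 0.91 and 0.92, and Sqle with Fdft1 is at 0.77 on the left and -0.58 on the right.

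The genes most like the mean of the 8 were also sought. Over the node means Msmo1 1423078_a_at, another enzyme of the pathway, was closest (r = 0.949, n = 8 nodes), followed by Btbd17 (0.931), Plek (0.921), Gpn3 (0.92) and Rflna (0.919). Over the Ebf1-ER arrays the closest were Bet1 (0.97, n = 8 arrays), Atf2 (0.968), Phip (0.967), Stk38l (0.966) and AW551984 (0.966), none of which is on the sterol lists. The search ran over the 34958 single-gene probe sets without the 21 of the 8 genes, each with 8 points.

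Of the rest of the pathway in the nodes, limma called 0 of 5 other mevalonate genes (3 higher at unadjusted p under 0.05), and 4 of 9 from squalene to cholesterol were higher and 0 lower. Sc5d, the lathosterol desaturase, was at -0.88 and -0.87 in wild-type samples and between -0.22 and 0.44 in the nodes (0.96 ± 0.17, 1.95-fold). Erg28 was higher by 0.60, Hsd17b7 by 0.48 and Ebp by 0.26. In SREBP control Mbtps1, the first SREBP protease, was higher by 0.83 and Scap by 0.75. Stard4 was higher by 0.68 on 1455011_at. On Stard4 1429239_a_at the groups overlapped, with wild-type samples at -0.49 and -0.20 and nodes between -0.56 and 0.57. Vldlr, a lipoprotein receptor, was lower (log2 change -0.52), and limma called 0 of 5 efflux genes (2 lower at unadjusted p under 0.05). Of 12 fatty acid genes 5 were higher (7 of 32 probe sets, against 9.87% of all), with Fads2 and Acsl3 at 1.40 each, Scd2 1415823_at at 1.29 and Fasn at 1.28. The other Scd2 probe set named, 1415824_at, was at 0.17 and -0.02 in wild-type samples and between -0.33 and 0.41 in the nodes. Of 7 prenylation genes 4 were higher (5 of 13 probe sets), led by Pggt1b at 0.92. Of 15 other named probe sets called in the nodes, 0 kept the call in every alternative run.

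**Figure D5:**
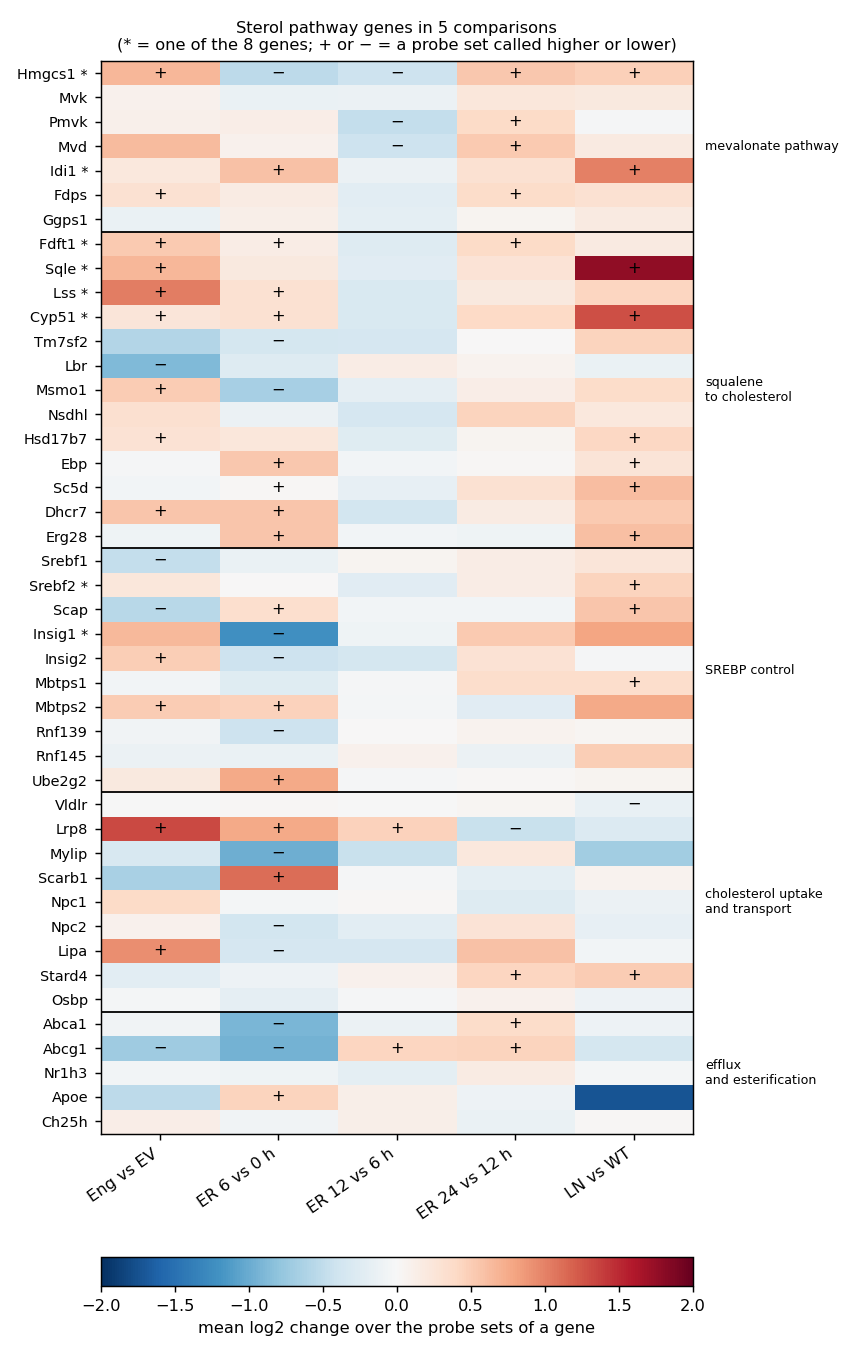
Mean log2 change over the probe sets of each measured sterol gene (rows, 5 lists separated by lines) in 5 comparisons (columns), from -2 (blue) to 2 (red), with stars at the 8 genes and plus or minus signs where a probe set was called higher or lower. The 12 h against 6 h column is mostly pale blue in the first 2 lists, and Sqle and Cyp51 are the darkest of the 8 genes in the lymph node column.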

How the data were processed

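RNA was amplified from its 3′ end and hybridised to Affymetrix mouse arrays. The authors deposited 1 matrix of 45101 probe sets and 32 arrays as log2 values; RMA is named in the submitters' processing notes. No source used here states the base, which was read as log2. Every probe set had a median of 0 (within 1e-05) over the 6 arrays of the first and the 8 of the second experiment. In the third only 10846 had, so 0 is not the median of most probe sets there. The values are relative, so levels cannot be read and no filter on low values was possible. Gene names came from GEO's platform table, brought up to date with RefSeq identifiers (34754 of 34958 matched); 932 with several genes and 9211 with none were left out. Listed genes without a single-gene probe set were not analysed here.

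Each experiment was fitted separately in limma 3.58.1 (R 4.3.3; lmFit, eBayes), two-sided, without a trend; against wild type each node entered as the mean of its 2 arrays. The script was tested on simulated data. The number of arrays limits the precision. Same-numbered samples of the first experiment deviated together (correlations 0.26, 0.35 and 0.43). Across numbers, Ebf1-Eng 1 with empty vector 2 gave 0.26 and Ebf1-Eng 2 with empty vector 1 gave 0.12. Sample 3 of either group with samples 1 and 2 of the other gave -0.38 to -0.24. The values thus set sample 3 apart and do not show that samples 1 and 2 are pairs. The main fit used no pairs, and the replicate block was an alternative only. In the time course numbers were not taken as pairs. Named genes were all probe sets of the members, Srebf1, Abca1 and Ebf1, up to 4 called, non-overlapping genes of each list by largest change, and the 5 most correlated genes. For a listed gene outside the members, the change given is that of its called, non-overlapping probe set with the largest change. Its other probe sets may differ. Single nodes, samples and marker genes given beside them were chosen after their values were seen. The members, lists and rules were chosen with earlier results of these data known. Alternatives were all probe sets, 1 value per gene, robust eBayes, no low-variance probe sets, array medians subtracted, 1 fit over all groups, the replicate or node block, and each sample left out.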

Additional observations from a re-analysis of the deposited data

Results flagged for a closer look

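Among 8 lymph nodes, node 317 stood apart on Fdft1 1438322_x_at. Its value was -0.44 and the next lowest node was at -0.12, a gap of 0.538 of the whole range, above Dixon's critical value for 8 samples. Fdft1 was 1 of 21 probe sets examined in this way, and chance alone marks about 1 in 20.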

How the results depend on the processing

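No called difference of a named probe set changed direction in any alternative run. Of the called probe sets of the 8 genes, 3 of 8 kept their call in every alternative with Ebf1-Eng, 3 of 9 at 6 h, 7 of 9 at 12 h and 3 of 7 at 24 h against 0 h, 0 of 2 and 0 of 4 in the 2 later steps, and 2 of 9 in the nodes. Leaving out 1 sample of the groups compared gave 3 to 11 called member probe sets with Ebf1-Eng (2 to 6 genes, 1776 to 5192 of all probe sets), 2 to 10 in the nodes (2 to 6 genes, 1607 to 6972 of all), 0 in 12 h against 6 h (140 to 218 of all), 0 in 24 h against 12 h (53 to 120 of all), and 1013 to 1234 of all probe sets in 24 h against 6 h. A sample left alone in its group was assumed to vary like the others.

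With 1 fit over all groups of the series the counts were 3 member genes for Ebf1-Eng, 4 member probe sets at 6 h (6292 of all), 7938 of all at 12 h, 4 member probe sets at 24 h (7294 of all), 0 and 0 in the later steps (8 and 33 of all) and 381 of all in 24 h against 6 h. In 12 h against 6 h, using all probe sets of the matrix gave 0 member calls, robust eBayes, dropping the least variable 25% and subtracting array medians gave 1 each, and 1 value per gene, by the most variable probe set or the mean, gave 0 genes. In 24 h against 12 h, all probe sets gave 2 probe sets in 1 gene, the most variable probe set 0 genes, and robust eBayes and the variance filter 1 gene each. The mean of probe sets gave 3 genes in the nodes. Leaving out both samples numbered 3, an alternative chosen after seeing the data, gave 7991 of all probe sets with Ebf1-Eng.

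With the replicate block, Ebf1-Eng gave 12 member probe sets and 5824 of all. In the time course the numbers did not pair the samples, and the block gave 0 member calls (464 of all) in 12 h against 6 h and 1 in 1 gene (756 of all) in 24 h against 12 h. The causes of these changes were not tested. Fewer samples left lower power by construction.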
